A study of Mus musculus with 12 samples.

Results

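The genes examined were Dio2, Thra and Thrb, chosen by name as the activating deiodinase and both nuclear receptors of thyroid hormone, which makes 3 genes of 24452 in the RPKM table. All 3 passed the filter on low values. Dio2 encodes type 2 iodothyronine deiodinase, a selenoprotein of the endoplasmic reticulum that converts the prohormone thyroxine (T4) into the active hormone triiodothyronine (T3) inside the cell. Thra and Thrb encode the receptors TRα and TRβ, which bind T3 in the nucleus, pair with retinoid X receptors, and hold corepressors without hormone and coactivators with it. In brown fat, noradrenaline acts through β-adrenergic receptors and cAMP to raise Dio2, and the T3 made there acts together with the adrenergic signal on heat production.

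Brown adipose tissue, the fat depot that makes heat, was taken from male C57BL/6J Bom mice at 12 weeks of age, and its RNA was sequenced in 12 libraries, 3 for each of 4 groups. ERRαγAd-/- CL316,243 mice lacked ERRα and ERRγ in adipocytes and received CL316,243, which activates the β3-adrenergic receptor, by intraperitoneal injection at 1 mg/kg daily for 10 days. ERRαγAd-/- PBS mice had the same deletion and received PBS. WT CL316,243 and WT PBS mice were littermates that carried floxed ERRα and ERRγ alleles without Cre and received agonist or PBS. All mice were housed at 30 °C, a temperature at which mice need little heat from brown fat, and tissue was taken 24 h after the last agonist dose. Cre was driven by the adiponectin promoter, which is active in adipocytes of white as well as brown depots, so other cells of the tissue keep both ERR genes.

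Reads were recovered per library for the 12380 genes of a second deposited table. Their sums ranged from 12468001 to 12954186 in ERRαγAd-/- CL316,243 and 12822176 to 13263567 in ERRαγAd-/- PBS. In WT CL316,243 they ranged from 8979123 to 9559239, and in WT PBS from 8478310 to 9727167. These sums leave out reads outside those genes, so they are not the sequencing depth, which was not compared. Whether the 3 libraries of a group are 3 animals is not stated in the labels, and p-values therefore reflect only how far these samples spread, which may be technical. Esrra, which encodes ERRα, lay between 5.25 and 8.89 RPKM in the 6 ERRαγAd-/- libraries, against 41.6 to 83.1 in the 6 WT libraries. Esrrg, which encodes ERRγ, averaged 7.02 ± 0.950 RPKM in ERRαγAd-/- CL316,243, 3.54 ± 1.21 in ERRαγAd-/- PBS, 6.90 ± 1.26 in WT CL316,243 and 6.87 ± 2.15 in WT PBS (SD, n = 3 each), and was called lower with the deletion under PBS (-0.87 ± 0.25, limma adjusted p = 0.0189) but not under agonist (0.03 ± 0.25, limma adjusted p = 0.944). With deposited RPKM these were -0.34 (adjusted p = 0.274, not called) and 0.69 (adjusted p = 0.034, called higher). Since reads from exons that the deletion leaves intact may be counted in it, Esrrg is a weak check of the label. Summed adipocyte markers (Adipoq, Fabp4, Plin1, Lep and Pparg) ranged from 17536 to 17777 in ERRαγAd-/- CL316,243, 10465 to 14397 in ERRαγAd-/- PBS, 15209 to 16177 in WT CL316,243 and 9658 to 14535 in WT PBS. Summed brown adipocyte markers (Ucp1, Cidea, Prdm16 and Ppargc1a) ranged from 354 to 469, 110 to 185, 3478 to 4737 and 1281 to 2026 in the same order. Of these 4 genes 2, Ucp1 and Cidea, were called lower with the deletion under PBS and under agonist. Of all genes tested, 18.4% and 21.6% were called lower there. Prdm16 (0.02 and -0.26) and Ppargc1a (0.35 and 0.29) were not called, and with deposited RPKM Ppargc1a was called higher (0.90 and 0.96). Skeletal muscle transcripts were spread widely: 8 of 8 markers were in the table, and their sum ranged from 172 to 1368, 80.6 to 2446, 1.56 to 308 and 1.98 to 240, highest in replicate 3 of both ERRαγAd-/- groups.

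Levels are RPKM (reads per kilobase of gene, relative to library size) divided by a median-of-ratios factor per library, so that the typical gene does not differ between libraries. Changes are log2 differences of these levels with 0.5 added, with their SE, and adjusted p is from limma with Benjamini-Hochberg adjustment over 12249 genes. On the deposited RPKM the median gene differed by 0.53 (log2) between ERRαγAd-/- and WT under PBS and by 0.63 under agonist. With agonist it moved by -0.16 in ERRαγAd-/- and by -0.26 in WT. Deposited-scale values are given for the members and beside the pathway results whose call or direction they change.

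The promoter of Dio2 is shown because Dio2 was the member whose level followed the agonist. Promoter sequences from RefSeq (GRCm38.p6) were matched for Dio2, with 1 start, and Thrb, with 2. The stretch holds the 250 bases before the RefSeq start of Dio2 at chr12:90739039-90739288, minus strand. Capitals mark the letters TGACGTCA, the consensus of the cAMP response element, which is bound by factors of the CREB family.

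Dio2: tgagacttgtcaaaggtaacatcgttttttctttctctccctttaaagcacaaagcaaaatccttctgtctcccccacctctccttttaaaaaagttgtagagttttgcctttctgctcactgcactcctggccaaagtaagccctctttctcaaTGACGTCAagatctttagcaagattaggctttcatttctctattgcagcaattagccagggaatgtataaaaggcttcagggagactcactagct

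The element covers bases 95 to 88 before the start, and 1.55% of 32851 mouse promoters hold these letters in a window of the same length. A TATAAA sequence begins 30 bases before the start and is found in 12.4% of promoters. The shorter sequence TGACG, searched on both strands, is contained in the full element of Dio2 and was found in 17.8% of promoters. At Thrb it occurred once, 56 bases before the upstream start, and not as part of the full element. To set both sites side by side, 30 bases around each are given with the matched letters in capitals, for Dio2 at chr12:90739115-90739144 (minus strand) and for Thrb at chr14:17660891-17660920 (plus strand).

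Dio2: ctctttctcaaTGACGTCAagatctttagc
Thrb: cggccggccggcgTGACGcggcgggattaa

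The Thrb stretch has a GC content of 76.7%, and that of Dio2 40.0%. Over the whole window the GC content was 41.6% at Dio2 and 71.6% at the upstream Thrb start, against a median of 52.4% over all promoters. The letters AAGGTCA, the core sequence bound by ERR receptors, were in none of the 3 windows of Dio2 and Thrb on either strand, and in 4.08% of all promoters. A match is a description of letters, and its absence says only that they are not in this window. The RefSeq start of Dio2 lies 600 bases upstream of the start annotated by GENCODE M21.

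Dio2 (chromosome 12, 90724552 to 90738438, minus strand, GRCm38) was the member that changed in all 4 comparisons of genotype or treatment. In ERRαγAd-/- CL316,243 libraries it stood at 3.28, 1.43 and 3.74 RPKM. In ERRαγAd-/- PBS libraries it stood at 0.300, 0.217 and 0.22 RPKM. In WT CL316,243 libraries it stood at 12.7, 6.46 and 9.08 RPKM, and in WT PBS libraries at 1.75, 0.955 and 3.34 RPKM. The 3 ERRαγAd-/- PBS libraries were the lowest of the 12 and the 3 WT CL316,243 libraries the highest, and only ERRαγAd-/- CL316,243 and WT PBS overlapped.

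Without agonist, Dio2 fell in the deleted tissue. It averaged 0.246 ± 0.0468 RPKM in ERRαγAd-/- PBS and 2.02 ± 1.21 RPKM in WT PBS (SD, n = 3 each), which is 8.21-fold lower, and the change on the log2 scale was -1.64 ± 0.36 (limma adjusted p = 0.00386). The ERRαγAd-/- PBS value rests on 39, 26 and 29 recovered reads, against 152, 76 and 273 in WT PBS, and since 0.5 is added the log2 change understates that of a gene this low. On the recovered reads themselves edgeR gave -3.01 (adjusted p = 6.63e-04). Under agonist Dio2 was also lower with the deletion, at 2.82 ± 1.22 RPKM in ERRαγAd-/- CL316,243 against 9.42 ± 3.14 RPKM in WT CL316,243, which is 3.34-fold lower (-1.61 ± 0.36, limma adjusted p = 0.00349). In bulk tissue, fewer cells that express a gene and less RNA per cell cannot be told apart.

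The agonist raised Dio2 in both genotypes. In ERRαγAd-/- it averaged 2.82 ± 1.22 RPKM with CL316,243 against 0.246 ± 0.0468 RPKM with PBS, 11.5-fold higher (2.08 ± 0.36, limma adjusted p = 0.00496). In WT it averaged 9.42 ± 3.14 RPKM with CL316,243 against 2.02 ± 1.21 RPKM with PBS, 4.67-fold higher (2.04 ± 0.36, limma adjusted p = 0.00142). The difference between both responses was 0.03 ± 0.51 (limma adjusted p = 0.982), with a 95% interval from -1.08 to 1.14, so a 2-fold larger or smaller response in ERRαγAd-/- was not detectable with this spread. This difference depended on how low values were treated: it was 0.70 with 0.1 added in place of 0.5, -0.26 with 1 added, and 1.26 by edgeR on recovered reads (adjusted p = 0.598, 0.817 and 0.333). The call in ERRαγAd-/- was lost without replicate 3 of both ERRαγAd-/- groups, the libraries highest in muscle transcripts (1.81, adjusted p = 0.0522), and the fall under PBS stayed at -1.59 (adjusted p = 0.015).

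Ranked by mean, Dio2 was highest in WT CL316,243, then ERRαγAd-/- CL316,243, then WT PBS, and lowest in ERRαγAd-/- PBS. Each step passed the test except the middle one, where ERRαγAd-/- CL316,243 against WT PBS gave 0.43 ± 0.36 (limma adjusted p = 0.364). In that comparison 39.3% of all genes were called and 48.0% did not overlap. The mean of agonist-treated ERRαγAd-/- tissue was thus 1.40 times that of untreated WT tissue, within the spread. On the deposited scale the Dio2 changes were -1.36 for the deletion under PBS, -0.96 under agonist, 2.12 for agonist in ERRαγAd-/- and 1.71 in WT, all called (limma adjusted p between 0.00235 and 0.0254).

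**Figure D1:**
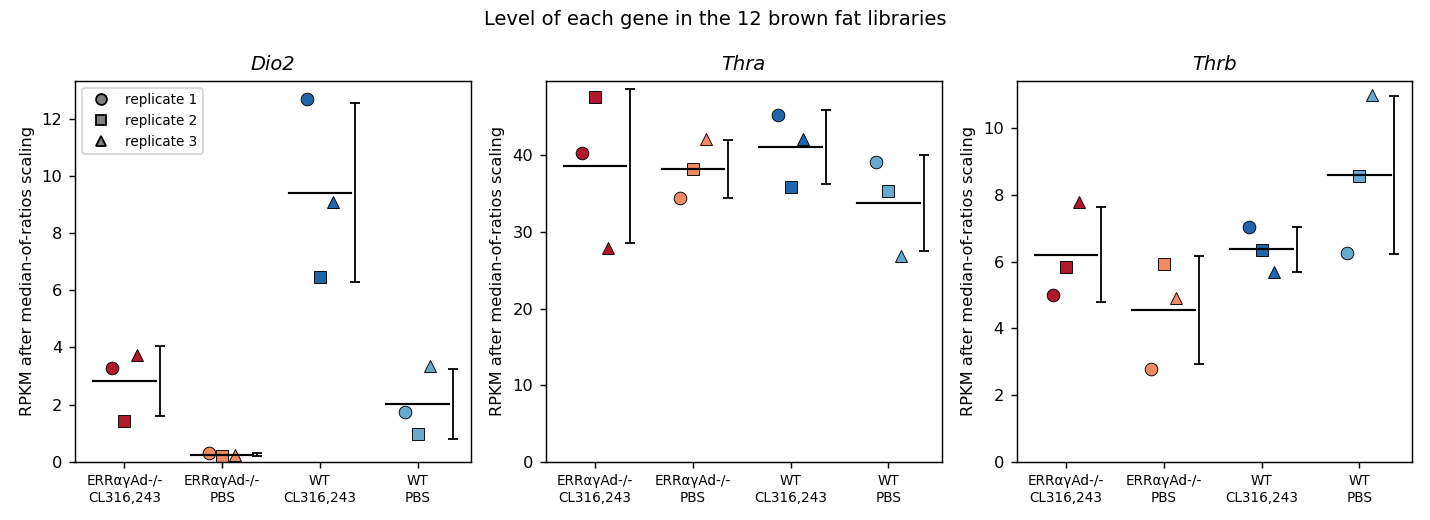
Each point is 1 library, with scaled RPKM on the vertical axis, group on the horizontal axis, a line at the group mean and a bar for the SD of 3 libraries. Dio2 lies between 0.217 and 0.300 in ERRαγAd-/- PBS and between 6.46 and 12.7 in WT CL316,243, Thra overlaps between all groups, and Thrb in ERRαγAd-/- PBS lies below all WT PBS libraries.

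Thra (chromosome 11, 98740638 to 98769006, plus strand) encodes TRα1, the hormone-binding form, and TRα2, a splice form that does not bind T3, which a value for the whole gene cannot separate. It stood at 40.3, 47.7 and 27.9 RPKM in ERRαγAd-/- CL316,243, at 34.5, 38.2 and 42.1 in ERRαγAd-/- PBS, at 45.3, 35.9 and 42.1 in WT CL316,243 and at 39.1, 35.3 and 26.9 in WT PBS. The groups overlapped in every comparison, and the lowest libraries were WT PBS replicate 3 and ERRαγAd-/- CL316,243 replicate 3. Group means were 38.6 ± 10.0, 38.3 ± 3.79, 41.1 ± 4.78 and 33.8 ± 6.24 RPKM (SD, n = 3 each) in that order.

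No Thra change passed the test on the scaled values. The change was 0.19 ± 0.19 for ERRαγAd-/- PBS against WT PBS, with a 95% interval from -0.22 to 0.60 (limma adjusted p = 0.458), and -0.11 ± 0.19 for ERRαγAd-/- CL316,243 against WT CL316,243, with an interval from -0.52 to 0.29 (limma adjusted p = 0.662). With agonist it was -0.02 ± 0.19 in ERRαγAd-/- (limma adjusted p = 0.97) and 0.29 ± 0.19 in WT (limma adjusted p = 0.268), and the interaction was -0.31 ± 0.26 (limma adjusted p = 0.599). None of the neighbouring groups in the order of means differed beyond the spread. On the deposited scale Thra was called higher in ERRαγAd-/- than in WT, by 0.78 under PBS and 0.59 under agonist (limma adjusted p = 0.00341 and 0.0146). In those comparisons the median gene moved by 0.53 and 0.63, and 66.3% and 70.5% of genes tested were called higher on that scale, with 6.22% and 6.62% lower.

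Thra shares part of its last exon with Nr1d1, the gene of the clock repressor REV-ERBα, which is transcribed from the other strand. The shared bases lie between 98768157 and 98768419 on chromosome 11, make up 8.33% of the exon bases of Thra, and belong to the TRα2 end of the gene. The deposited RPKM corresponds to a Thra length of 3186 bases, close to the 3158 exon bases of both splice forms together, and whether strand was used in counting is not given in the sources used here. Nr1d1 itself stood at 71.1 ± 4.8 RPKM in ERRαγAd-/- CL316,243, 73.7 ± 17.8 in ERRαγAd-/- PBS, 36.3 ± 3.38 in WT CL316,243 and 59.5 ± 9.51 in WT PBS. It was higher with the deletion under agonist (0.96 ± 0.16, limma adjusted p = 4.52e-04) and lower with agonist in WT (-0.70 ± 0.16, limma adjusted p = 0.0066), and its part in the Thra values was not tested.

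Thrb (chromosome 14, 17660261 to 18038090, plus strand) encodes TRβ, the receptor form known for the action of T3 on Ucp1 in mouse brown fat. It stood at 5.01, 5.83 and 7.79 RPKM in ERRαγAd-/- CL316,243, at 2.78, 5.93 and 4.92 in ERRαγAd-/- PBS, at 7.05, 6.35 and 5.69 in WT CL316,243 and at 6.27, 8.55 and 11.0 in WT PBS. All 3 ERRαγAd-/- PBS libraries lay below all 3 WT PBS libraries, by a narrow gap between 5.93 and 6.27, and all other pairs of groups compared overlapped.

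Thrb fell in deleted tissue without agonist, to 4.54 ± 1.61 RPKM in ERRαγAd-/- PBS against 8.59 ± 2.34 RPKM in WT PBS (SD, n = 3 each), 1.89-fold lower (-0.87 ± 0.25, limma adjusted p = 0.0172). The call was lost without ERRαγAd-/- PBS replicate 1 (-0.59) and without WT PBS replicate 3 (-0.69), both with adjusted p = 0.0661, and on the deposited scale (-0.33, adjusted p = 0.217). Without replicate 3 of both ERRαγAd-/- groups it was -0.95 (adjusted p = 0.0263). Under agonist Thrb averaged 6.21 ± 1.43 RPKM in ERRαγAd-/- CL316,243 and 6.36 ± 0.682 RPKM in WT CL316,243 (-0.05 ± 0.25, limma adjusted p = 0.9), with an interval from -0.59 to 0.49. On the deposited scale that value turned to 0.61 (adjusted p = 0.0315), close to the shift of the median gene.

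With agonist, Thrb means moved in opposite directions in the genotypes, and neither change passed. It was 0.45 ± 0.25 in ERRαγAd-/- (limma adjusted p = 0.299) and -0.38 ± 0.25 in WT (limma adjusted p = 0.277), a call only on the deposited scale (-0.67, adjusted p = 0.036). The interaction of 0.82 ± 0.35 had an unadjusted p of 0.0373 and did not pass (limma adjusted p = 0.232). By mean, Thrb was highest in WT PBS, then WT CL316,243, then ERRαγAd-/- CL316,243, and lowest in ERRαγAd-/- PBS, and neighbouring groups in that order did not differ beyond the spread.

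**Figure D2:**
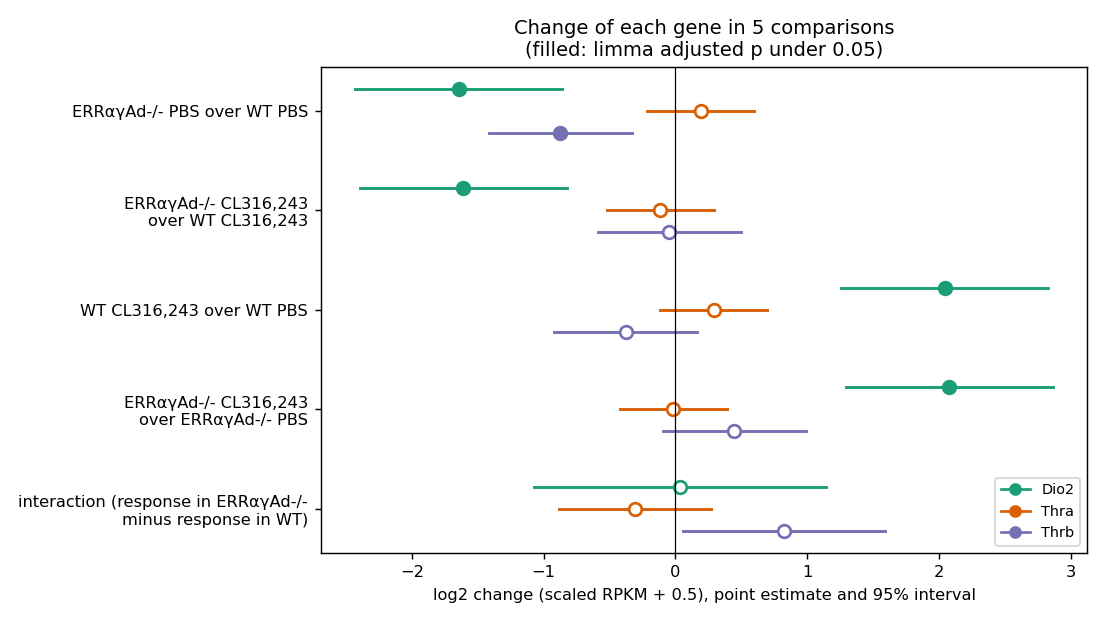
Points give the log2 change of each gene in 5 comparisons and lines its 95% interval, with filled points for limma adjusted p under 0.05. Dio2 is lower with the deletion (-1.64 and -1.61) and higher with agonist (2.08 in ERRαγAd-/- and 2.04 in WT), Thrb is called lower in ERRαγAd-/- PBS (-0.87), and all 5 Thra intervals cross 0. All values are on the scaled RPKM, and on the deposited scale the Thrb call is lost and Thra is called higher with the deletion.

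Against all genes tested, 2 of 3 members were called lower in ERRαγAd-/- PBS against WT PBS, where 18.4% of genes were lower and 15.8% higher, and the libraries of both groups did not overlap for 45.0% of genes. Under agonist 1 of 3 was called lower with the deletion, against a background of 21.6% lower and 19.8% higher, and 54.6% of genes did not overlap. The agonist raised 1 of 3 in ERRαγAd-/- (background 6.68% higher, 3.62% lower, 31.8% not overlapping) and 1 of 3 in WT (background 18.0% higher, 12.6% lower, 43.0% not overlapping). The limma interaction called none of the 3, with 1 at an unadjusted p under 0.05, none by edgeR, and 3.90% of all genes called. With 3 members these counts describe the genes and are no result about the set.

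The level of one receptor relative to the other was compared within libraries, since a ratio of RPKM values does not depend on the scaling between them. Thra exceeded Thrb in all 12 libraries. The ratio was 8.04, 8.18 and 3.58 in ERRαγAd-/- CL316,243, 12.4, 6.44 and 8.56 in ERRαγAd-/- PBS, 6.42, 5.65 and 7.40 in WT CL316,243 and 6.23, 4.13 and 2.45 in WT PBS. Under PBS the ERRαγAd-/- libraries lay above the WT libraries, by a narrow gap, and under agonist they overlapped. Over both treatments the log2 ratio was 0.54 higher in ERRαγAd-/- than in WT, which did not pass an exact two-sided permutation test within treatments (p = 0.17, adjusted over 2 tests p = 0.34, smallest possible p = 0.005). Without ERRαγAd-/- CL316,243 replicate 3, which had the lowest ratio of the deleted tissue, it was 0.74 (exact permutation, adjusted p = 0.03). CL316,243 against PBS gave 0.09 within genotypes (exact permutation p = 0.82, adjusted p = 0.82).

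**Figure D3:**
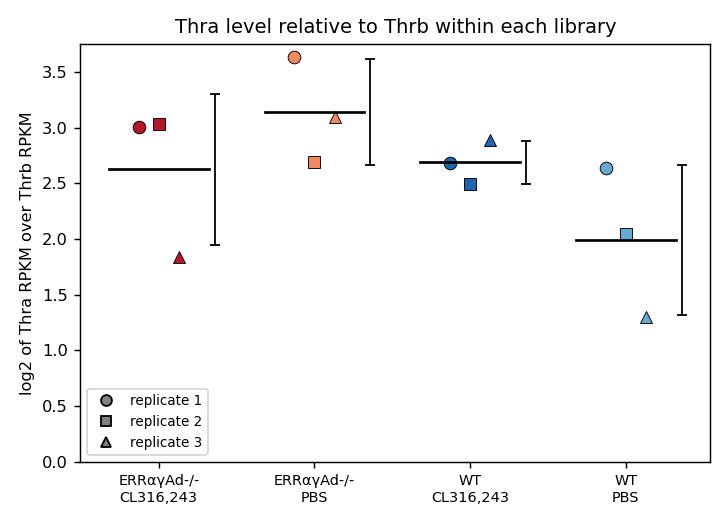
Points show log2 of Thra RPKM over Thrb RPKM in each library by group, with a line at the group mean and a bar for the SD of 3 libraries. Group means were 2.63 ± 0.68 in ERRαγAd-/- CL316,243, 3.14 ± 0.47 in ERRαγAd-/- PBS, 2.69 ± 0.19 in WT CL316,243 and 1.99 ± 0.67 in WT PBS.

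Markers of other cells also differed between the groups in which Dio2 and Thrb changed. Summed adipose stroma markers (Pdgfra, Cd34, Dpt and Dcn, 4 of 4 in the table) ranged from 303 to 406 in ERRαγAd-/- CL316,243, 508 to 573 in ERRαγAd-/- PBS, 157 to 179 in WT CL316,243 and 192 to 267 in WT PBS. With the deletion under PBS 1 of these 4 genes was called, Dpt, at 340 ± 17.0 RPKM in ERRαγAd-/- PBS against 71.7 ± 27.3 in WT PBS (2.3 ± 0.22, limma adjusted p = 6.24e-06), while Cd34 stood at -0.17 ± 0.14. Of all genes tested, 15.8% were called higher and 18.4% lower there. On the deposited scale Dcn (1.02), Pdgfra (0.79) and Cd34 (0.42) were called higher too, and 66.3% of all genes were called higher. Under agonist Dpt, Pdgfra and Dcn were called higher with the deletion and Cd34 lower (-0.43 ± 0.14, limma adjusted p = 0.0323, against 0.28 and not called on the deposited scale). In that comparison 19.8% of all genes were called higher and 21.6% lower. Summed macrophage markers (5 of 5) ranged from 96.7 to 145, 157 to 199, 96.1 to 125 and 169 to 364 in that order, and endothelial markers (4 of 4) from 122 to 139, 125 to 131, 136 to 166 and 126 to 206. No list had a marker at 0 in a whole group, and the part of these cells in the member changes was not tested. Schwann cell markers (4 of 4) ranged from 9.99 to 31.4, 13.7 to 16.4, 69.3 to 117 and 30.3 to 83.0, and lymphocyte markers (5 of 5) from 1.37 to 2.00, 2.55 to 3.35, 1.62 to 2.42 and 1.07 to 7.38.

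The genes around Dio2 and the receptors were followed through a list of 39 others, grouped by role, of which 33 passed the filter. Neither of the other deiodinases passed it: Dio1, the deiodinase of liver and kidney, was listed at 0 in all libraries, and Dio3, which inactivates the hormone, reached at most 0.102 deposited RPKM. Slco1c1 and Slc17a4, carriers of thyroid hormone, Slc7a5, an amino acid carrier that also takes up thyroid hormone, and Crym, which binds T3 in the cytosol, were below the filter too, at no more than 0.0549, 0, 0.665 and 0.338 deposited RPKM.

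Among the transporters, Slc16a10, which encodes the carrier MCT10, lay between 3.16 and 5.07 RPKM in the group means and passed in none of the genotype or treatment comparisons on the scaled values, while on the deposited scale it was called higher with the deletion under PBS (0.86) and agonist (0.88). Slc7a8, an amino acid carrier that also moves thyroid hormone, was higher with the deletion under agonist (1.14 ± 0.24, limma adjusted p = 0.00247), at 2.82 ± 0.520 RPKM in ERRαγAd-/- CL316,243 against 0.993 ± 0.0541 in WT CL316,243.

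Retinoid X receptors, the partners of TRα and TRβ on DNA, moved apart. Rxra rose with the deletion to 28.0 ± 2.92 RPKM in ERRαγAd-/- PBS against 10.5 ± 0.5 in WT PBS (1.37 ± 0.09, limma adjusted p = 4.25e-07), and under agonist to 34.4 ± 2.88 against 14.6 ± 0.494 RPKM in WT CL316,243 (1.2 ± 0.09, limma adjusted p = 8.49e-07). Rxrb fell by 0.43 ± 0.08 under PBS and by 0.50 ± 0.08 under agonist (limma adjusted p = 0.00173 and 4.78e-04), but its values turned to 0.14 and 0.20 on the deposited scale and were not called there. Rxrg did not pass under PBS (-0.58 ± 0.21, limma adjusted p = 0.052) or agonist (-0.17 ± 0.21, limma adjusted p = 0.572), where the deposited scale gave 0.50 (adjusted p = 0.0494).

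Among 6 genes of the corepressor complex, 2 rose and 1 fell with the deletion under PBS, and 2 rose and 2 fell under agonist. Of all genes tested, 15.8% were called higher and 18.4% lower under PBS, and 19.8% and 21.6% under agonist. With deposited RPKM, 5 of 6 were called higher under PBS and 6 of 6 under agonist, and none lower. That scale called 66.3% and 70.5% of all genes higher in these comparisons, and 6.22% and 6.62% lower. Ncor1, a corepressor that unliganded TR binds, rose by 0.51 ± 0.13 and 0.64 ± 0.13 (limma adjusted p = 0.00792 and 0.0015), and Tbl1x, a further subunit, by 0.77 ± 0.10 and 0.72 ± 0.10 (limma adjusted p = 9.28e-05 and 1.11e-04). Tbl1xr1, its paralog, fell by 0.38 ± 0.09 and 0.30 ± 0.09 (limma adjusted p = 0.00751 and 0.0205), values that turned to 0.14 and 0.35 on the deposited scale, the second called higher, and was raised by agonist by 0.51 ± 0.09 in ERRαγAd-/- and 0.44 ± 0.09 in WT (limma adjusted p = 0.00592 and 0.00415), of which the WT call was lost with deposited RPKM (0.14, adjusted p = 0.265). Hdac3, the deacetylase of the complex, was raised by agonist in WT (0.50 ± 0.08, limma adjusted p = 5.89e-04), and fell with the deletion under agonist (-0.27 ± 0.08, limma adjusted p = 0.0147). With deposited RPKM the first was not called (0.18) and the second turned to 0.44, called higher.

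Of 8 coactivators 3 rose with the deletion under PBS and 2 under agonist, and none fell in either. Of all genes tested, 15.8% and 19.8% were called higher in these comparisons, and 18.4% and 21.6% lower. The deposited scale called 8 of 8 higher in both comparisons, against 66.3% and 70.5% of all genes. Ncoa1 (SRC-1) was higher under agonist in ERRαγAd-/- than in WT (0.49 ± 0.11, limma adjusted p = 0.00419) and was lowered by agonist in WT (-0.46 ± 0.11, limma adjusted p = 0.00927). Med1, the Mediator subunit that contacts nuclear receptors, did not pass under PBS (-0.04 ± 0.12) or agonist (-0.18 ± 0.12), and Ppargc1a, a coactivator of TR as well as of ERR receptors, gave 0.35 ± 0.31 and 0.29 ± 0.31 there, also not called. Both were called higher on the deposited scale, Med1 at 0.50 and 0.48 and Ppargc1a at 0.90 and 0.96. Of the genes that act on the turnover of the DIO2 protein, none of Wsb1, March6, Usp20 and Usp33 passed under PBS, with changes from -0.26 to -0.01, while on the deposited scale March6 (0.57), Usp20 (0.38) and Usp33 (0.51) were called higher. Under agonist 1 of these 4 fell with the deletion, Usp33 (-0.34 ± 0.08, limma adjusted p = 0.00679), where 21.6% of all genes were called lower. Usp33 turned to 0.36 on the deposited scale, which called all 4 higher, and 70.5% of all genes. Usp33, which encodes a deubiquitinase of DIO2, was raised by agonist in WT (0.55 ± 0.08, limma adjusted p = 6.24e-04), as was March6, which encodes a ubiquitin ligase of the endoplasmic reticulum, in both genotypes (0.36 ± 0.08 in ERRαγAd-/-, limma adjusted p = 0.0154, and 0.38 ± 0.08 in WT, limma adjusted p = 0.00358), neither of which was called on the deposited scale (0.17 and 0.07).

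Tshr, the receptor of thyrotropin, was higher with the deletion under agonist, at 10.7, 11.2 and 3.80 RPKM in ERRαγAd-/- CL316,243 against 1.12, 0.665 and 0.623 RPKM in WT CL316,243 (2.69 ± 0.46, limma adjusted p = 5.62e-04). These groups did not overlap, as for 54.6% of all genes tested. Under PBS its libraries stood at 3.39, 9.80 and 6.96 RPKM in ERRαγAd-/- against 3.40, 1.14 and 3.65 RPKM in WT, which overlapped and did not pass (1.17 ± 0.46, limma adjusted p = 0.069), although the deposited scale gave a call (1.70, adjusted p = 0.00471).

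Genes known in rodents to be raised by thyroid hormone did not move as a block. With the deletion 2 of 7 rose and 2 fell under PBS (median 0.21, against 0.01 over all genes), and 1 rose and 3 fell under agonist (median 0.04, against 0.01). Among all genes tested 15.8% were called higher and 18.4% lower under PBS, and 19.8% and 21.6% under agonist. With deposited RPKM the counts were 4 higher and 2 lower under PBS, and 3 higher and 3 lower under agonist. That scale called 66.3% of all genes higher and 6.22% lower under PBS, and 70.5% and 6.62% under agonist. Ucp1, which encodes the uncoupling protein that makes heat, fell by 6.48 ± 0.31 under PBS and 6.03 ± 0.31 under agonist (limma adjusted p = 2.90e-08 and 2.99e-08), and Gpd2, the mitochondrial glycerol-3-phosphate dehydrogenase, by 1.37 ± 0.16 and 1.90 ± 0.16 (limma adjusted p = 4.21e-05 and 1.78e-06). Thrsp, the lipogenic gene also called Spot 14, fell under agonist (-1.42 ± 0.30, limma adjusted p = 0.00263), and gave -0.53 ± 0.30 under PBS, which did not pass and turned to 0.06 on the deposited scale. In the other direction Hr, which encodes the corepressor hairless, rose by 1.91 ± 0.36 and 1.61 ± 0.36 (limma adjusted p = 0.0014 and 0.00328). Its libraries stood at 17.2, 5.96 and 5.93 RPKM in ERRαγAd-/- PBS against 1.76, 1.31 and 2.92 RPKM in WT PBS, without overlap, as for 45.0% of all genes tested. Klf9, a transcription factor induced by T3 in brain, rose under PBS (0.49 ± 0.14, limma adjusted p = 0.0151) and gave 0.07 ± 0.14 under agonist, where it was called only on the deposited scale (0.77).

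In the WT response to agonist 4 of these 7 genes rose and 1 fell (median 1.08, against 0.01 over all genes). Among all genes tested 18.0% were called higher and 12.6% lower there. Ucp1 rose by 2.41 ± 0.31, Thrsp by 1.12 ± 0.30, Gpd2 by 1.12 ± 0.16 and Klf9 by 0.40 ± 0.14 (limma adjusted p between 1.78e-04 and 0.0416), of which Klf9 was not called on the deposited scale (0.09). In ERRαγAd-/- 2 of 7 rose with agonist and none fell (median 0.14, against 0.02), where 6.68% of all genes were called higher and 3.62% lower. The genes that rose were Ucp1 (2.86 ± 0.31, limma adjusted p = 4.37e-04) and Gpd2 (0.58 ± 0.16, limma adjusted p = 0.0399), the second not called on the deposited scale (0.38, adjusted p = 0.112). That scale called 1 of 7 higher and 1 lower, against 3.23% and 13.7% of all genes. The difference between genotypes in the agonist response was not called for any of the 33 pathway genes by limma or edgeR. Limma called this difference for 3.90% of all genes, and edgeR for 412 of 12380. An unadjusted limma p under 0.05 was seen for 7 of the 33, and its share over all genes was not taken.

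Over all 33 pathway genes, 8 rose and 5 fell with the deletion under PBS (median 0.22) and 9 rose and 8 fell under agonist (median 0.11). The shares over all genes were 15.8% higher and 18.4% lower under PBS, and 19.8% and 21.6% under agonist. With agonist 4 rose and none fell in ERRαγAd-/- (median 0.11), and in WT 11 rose and 4 fell (median 0.25). For agonist those shares were 6.68% higher and 3.62% lower in ERRαγAd-/-, and 18.0% and 12.6% in WT. For agonist in ERRαγAd-/-, edgeR called 3 of the 33 higher and 1 lower, against 686 higher and 532 lower of 12380 genes. An unadjusted limma p under 0.05 was seen for 10 of the 33, and its share over all genes was not taken. The split depended on the scale. With the deposited RPKM 25 were higher and 2 lower with the deletion under PBS, 27 and 4 under agonist, 2 and 3 with agonist in ERRαγAd-/-, and 4 and 11 with agonist in WT. Over all genes that scale called 66.3% higher and 6.22% lower with the deletion under PBS, and 70.5% and 6.62% under agonist. It called 3.23% higher and 13.7% lower with agonist in ERRαγAd-/-, and 7.20% and 38.1% in WT.

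**Figure D4:**
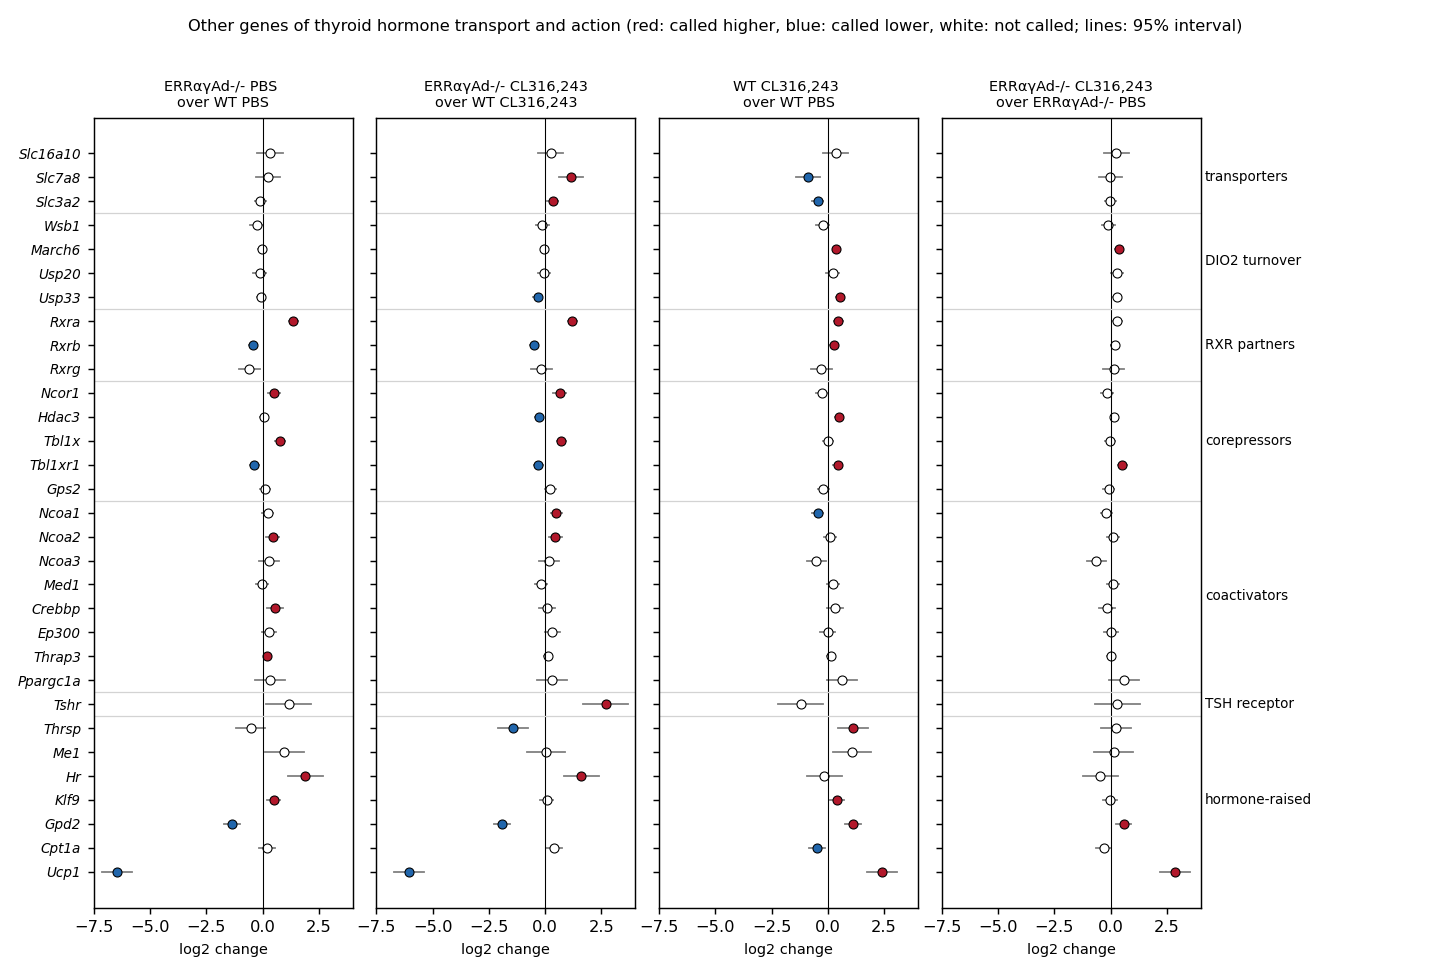
Each row is 1 of 31 pathway genes by role and each panel a comparison, with the log2 change of scaled RPKM on the horizontal axis, lines for 95% intervals, and red or blue points for genes called higher or lower. With the deletion under PBS 8 of these are red and 4 blue, Rxra (1.37) and Hr (1.91) lie farthest to the right, and Ucp1 (-6.48) farthest to the left among those called. Of all genes tested, 15.8% were called higher and 18.4% lower in that comparison.

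The genes whose pattern was most like a member were found by the root mean square difference over the 12 libraries, in log2 of scaled RPKM plus 0.5 after subtracting each gene's own mean, among 11167 genes. For Dio2 these were Gys2, a glycogen synthase (0.326), Slc25a20, the mitochondrial carnitine-acylcarnitine carrier (0.493), Poln, a DNA polymerase (0.523), Etfdh, which passes electrons from fatty acid oxidation to ubiquinone (0.567), and Gk, glycerol kinase (0.572). Dio2 itself differed from its mean by 1.38 on this measure, and the median gene differed from Dio2 by 1.402. Gys2 averaged 8.90 RPKM in ERRαγAd-/- CL316,243, 2.07 in ERRαγAd-/- PBS, 27.1 in WT CL316,243 and 7.20 in WT PBS, which is the order seen for Dio2.

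For Thrb the nearest genes were Mospd1 (0.213), Tmem141 (0.227), Lmo1 (0.228), the calcium-binding protein gene S100a1 (0.228) and Shmt2, the mitochondrial serine hydroxymethyltransferase (0.230), where Thrb differed from its own mean by 0.425. S100a1 averaged 249 RPKM in ERRαγAd-/- CL316,243, 206 in ERRαγAd-/- PBS, 284 in WT CL316,243 and 372 in WT PBS. For Thra, which differed from its own mean by 0.239, they were Sipa1l1 (0.145), Tspan9 (0.148), Sltm (0.149), Prdm15 (0.152) and Rnf144a (0.158). A gene with little variation lies near many others, and the measure describes likeness over libraries that share a group.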

How the data were processed

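The authors deposited RPKM for 24452 genes. Their second deposited table, for 12380 genes, has log CPM in its name but holds a linear signal, in which every value (100%, tolerance 0.01) is a whole multiple of 1 step per library, so reads were recovered by division. Stray cells in it, 9 in all, were left out. The submitters' processing notes name bcl2fastq 2.16.0.10, cutadapt, STAR 2.3.0, edgeR, mm9 and mm10, without roles. No counting tool, annotation or strand setting is named in the sources used here. Libraries came from total RNA with a TruSeq kit, per the labels' protocols.

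Scaled RPKM plus 0.5 was log2-transformed and tested with limma 3.58.1 (R 4.3.3, trended empirical Bayes) in 1 fit of 12 libraries, on 12249 genes whose mean RPKM reached 0.5. Benjamini-Hochberg adjustment was made per comparison, with calls at 0.05. The members, the scaling and the gene lists were chosen with earlier results of these data known. Alternatives were the deposited scale, quantile normalization, pseudocounts of 0.1 and 1, other filters, robust and weighted fits, separate fits, the second table, edgeR 4.0.16 on recovered reads, a replicate block and leaving out libraries. The procedure was tested on simulated data. Coordinates are 1-based, from GENCODE M21 on GRCm38, and gene lengths behind the RPKM were estimated against 122 single-exon genes. Named genes were the members, the ERR genes, Nr1d1, a set list of pathway genes (some results are not reported here, though their genes stay in the counts), up to 3 further called pathway genes per comparison by p, and the 5 genes nearest each member. Wsb1, Usp20 and those below the filter were named in addition, after their values were seen.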

Additional observations from a re-analysis of the deposited data

How the results depend on the processing

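The 4 Dio2 calls kept their direction under every alternative and passed under all but 1, the agonist response in ERRαγAd-/- without replicate 3 of both ERRαγAd-/- groups (1.81, adjusted p = 0.0522; 1.85 to 2.42 with single libraries left out), where fewer libraries enter. The Dio2 interaction, near 0 as reported, turned to -0.26 with a pseudocount of 1, -0.29 with library weights and -0.22 without both replicates 3, and ranged from -0.33 to 0.38 with single libraries left out. On the deposited scale Thra gave 0.78 for the deletion under PBS, 0.59 under agonist and -0.031 for agonist in WT, and Thrb gave -0.33, 0.61 and -0.67. That scaling moves the median gene by up to 0.63. Thrb under PBS was -0.88 and no longer called with only the groups compared, where fewer libraries inform the spread (adjusted p = 0.0529). Thra under agonist turned to 0.078 with quantile normalization and 0.10 without both replicates 3, which also gave 0.27 for agonist in ERRαγAd-/-. Thrb under agonist turned to 0.075 with library weights. For ERRαγAd-/- PBS against WT CL316,243, Thra turned to 0.81 (deposited) and 0.19 (quantile), and Thrb to 0.34 (deposited). The cause was not tested for values without a reason given here.

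With single libraries left out, Thrb under PBS ranged from -1.08 to -0.59 and under agonist from -0.21 to 0.083, and Thra under agonist from -0.28 to 0.10 and for agonist in ERRαγAd-/- from -0.18 to 0.20. The Thra to Thrb log2 ratio ranged from 0.37 to 0.74 between genotypes and from -0.084 to 0.29 between treatments. With the replicate block the Thrb change under PBS was -0.87 (adjusted p = 0.00952), no member call changed, and all genes called were 4070 against 4189 for the deletion under PBS and 1079 against 1261 for agonist in ERRαγAd-/-. The replicate numbers are not stated to pair samples. In their deviations 7 of 18 same-numbered pairs correlated above 0.1, with r from -0.389 to 0.454, and 7 of 12 libraries correlated best with their own number. Differently numbered pairs spanned a similar range, from -0.466 to 0.446, so these values cannot show whether numbers pair samples.

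Counts of genes called moved over 1.5 times on the deposited scale, to 8877 against 4189 for the deletion under PBS, 9451 against 5078 under agonist and 2068 against 1261 for agonist in ERRαγAd-/-. That count fell to 464 without both replicates 3 and to between 529 and 736 without ERRαγAd-/- CL316,243 replicate 1, 2 or 3 or ERRαγAd-/- PBS replicate 1. The interaction count of 478 was 1153 with library weights, 215 without both replicates 3, 822 without WT PBS replicate 3, and between 225 and 300 without 8 other single libraries. Low read number limits Dio2 in ERRαγAd-/- PBS, which rests on 26 to 39 reads.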
